A study of Sus scrofa with 11 samples.

Results

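The 9 genes described here were PMM1, CDPF1, ACKR2, PCYOX1, MPST, HCFC1R1, TM4SF5 and the loci ENSSSCG00000032047 and ENSSSCG00000034388, out of 12505 genes measured in pig liver. They were chosen by their FPKM levels, which averaged over 3 radiation doses lay below control, so every value against control is given as a description, without a test. All 9 passed the filter on low values, 2 of them (ENSSSCG00000032047 and ENSSSCG00000034388) through the control libraries alone. RNA came from 2 control libraries labelled day 0 and from 3 libraries each at 20, 30 and 40 Gy of hepatic irradiation, labelled day 35. Both kinds carry the genotype label WT, the tissue label liver and the cell type label hepatocyte, and no strain or age is stated. Dose and elapsed time cannot be told apart against control, while the 3 doses share their day. No label says that libraries came from separate animals, so spreads and p-values describe libraries and may be technical.

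The genes belong to different pathways. PMM1, a phosphomannomutase, interconverts mannose 6-phosphate and mannose 1-phosphate on the way to GDP-mannose, the sugar donor for protein glycosylation. MPST takes sulfur from 3-mercaptopyruvate, a product of cysteine breakdown, and is a source of hydrogen sulfide. PCYOX1 is a lysosomal oxidase that breaks down the prenylcysteines left when prenylated proteins are degraded. ACKR2 is an atypical chemokine receptor that takes up and degrades inflammatory CC chemokines without signalling through G proteins, and is best known from lymphatic endothelium. TM4SF5 is a membrane protein of the L6 family with several membrane-spanning segments, known for its expression in liver cancer. HCFC1R1 binds the transcriptional co-regulator HCF-1 and in human cells promotes its export from the nucleus. CDPF1 is named for a cysteine-rich DPF motif, and the 2 loci known by an identifier have no symbol in the gene tables.

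Levels are FPKM, the authors' fragment counts divided by transcript length and by mapped fragments, so they can be compared between genes. Total FPKM was 520839 to 949840 per library, 10236 to 10866 genes reached 1 FPKM, and sequencing depth is unknown. Near-identical profiles were found for 30Gy-1 with 30Gy-2 and, across dose groups, for 30Gy-3 with 20Gy-3. Over 4806 genes the log2 ratio within these pairs had an SD of 0.14 and 0.13, against 0.31 to 1.01 in the other 53 pairs. 30Gy-1 and 30Gy-2 were therefore counted as 1 sample in means and SDs (n = 2 at 30 Gy, n = 3 at 20 and 40 Gy, n = 2 in control). An alternative called the reduced set averages this pair and drops the cross-dose pair, which leaves 1 sample at 30 Gy and 2 at 20 Gy. The low-dose libraries also stood apart in another way, across the dose labels. CYP2E1, a hepatocyte enzyme, was at 62.3, 60.4 and 63.5 FPKM in 20Gy-1, 20Gy-3 and 30Gy-3 and at 1091 to 1126 FPKM in 20Gy-2, 30Gy-1 and 30Gy-2, and CD163, a macrophage receptor, was at 9.50 to 9.95 and 38.9 to 43.2 FPKM in the same libraries. The hepatocyte label was checked against ALB, APOA1, TTR, SERPINA1, FGB, APOH, CYP2E1, TF and AHSG. All 9 of these markers were present, with summed levels of 50831 to 82839 FPKM in control, 52454 to 71854 at 20 and 30 Gy and 34474 to 38164 at 40 Gy. At 40 Gy 3 of the 9 (ALB, TTR and TF) were lower than at 20 and 30 Gy and 0 were higher, while FGB and CYP2E1 differed upward by 1.0 and 2.64 (log2) without passing. TF missed the threshold without any 1 of 40Gy-3 (0.145), 40Gy-2 (0.169), 30Gy-2 (0.067), 30Gy-1 (0.0673), 20Gy-3 (0.0617), 20Gy-2 (0.0546) and 20Gy-1 (0.0565). ALB and TTR passed with each single library left out. In the reduced set ALB, TTR and TF did not pass, at log2 differences of -1.96, -2.18 and -2.16. The lower sum was mainly ALB, at 27264 to 35552 FPKM at 20 and 30 Gy and 7050 to 10811 FPKM at 40 Gy. HCFC1R1 and TM4SF5 were lowest in the same libraries, and the part of hepatocyte content in those levels was not tested.

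**Figure D1:**
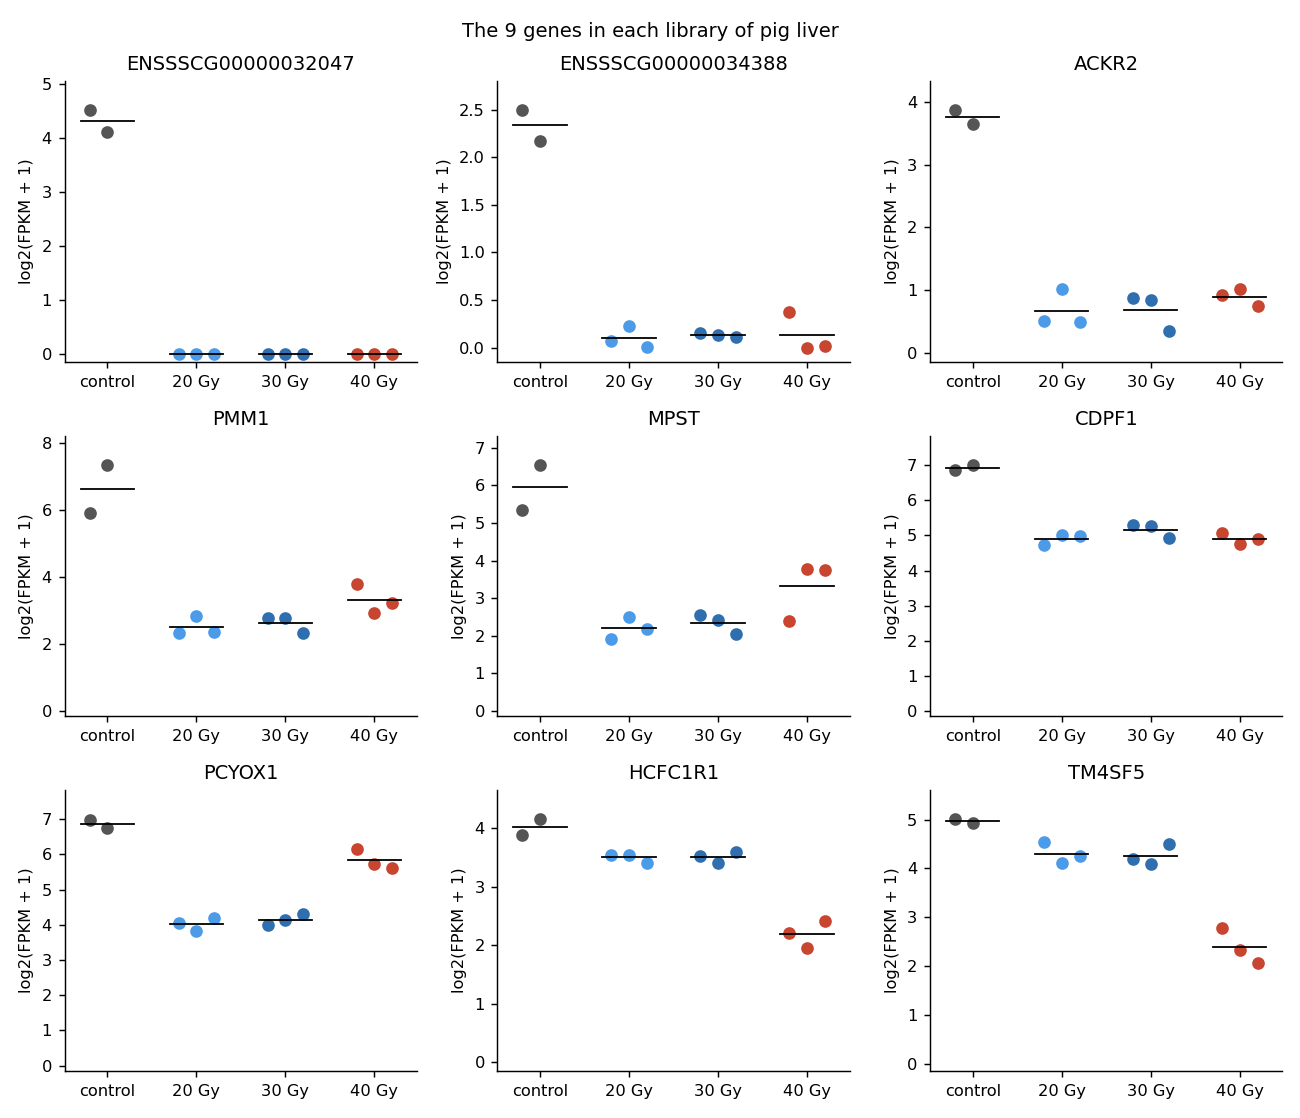
Each panel plots 1 of the 9 genes as log2(FPKM + 1) (vertical axis) in the 11 libraries by group (horizontal axis). Points are libraries and bars are group means over all libraries. Every irradiated library lies below both controls in every panel, and 40 Gy stands above the lower doses for PCYOX1 and below them for HCFC1R1 and TM4SF5.

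For all 9 genes, each of the 9 irradiated libraries lay below both controls. Of the 11644 genes tested, 7.86% showed this pattern, and because this contrast chose the 9 genes nothing is read from their count (0 of the 9 lay above both controls throughout, as 5.42% of all genes did). The median of their log2 differences between irradiated and control liver was -2.21, against 0.01 over all genes tested. The genes differed in how much was left at day 35. The loci ENSSSCG00000032047 and ENSSSCG00000034388 and the receptor ACKR2 were near or under 1 FPKM. PMM1 and MPST kept 4.33% to 14.9% of their control mean, CDPF1 24.0% to 27.8%, and PCYOX1, HCFC1R1 and TM4SF5 kept an amount that depended on dose.

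ENSSSCG00000032047 was at 21.8 FPKM in Control-1 and 16.2 FPKM in Control-2, and was listed at 0 in all 9 irradiated libraries. The groups are completely separate, and no fold is given because the depth behind a listed 0 is unknown. Within the control libraries the locus ranked above 73.2% and 77.7% of the genes tested. It was the only 1 of the 12505 genes with at least 1 FPKM in both controls that was listed at 0 in every irradiated library. A listed 0 can be a failed estimate. Of 9 housekeeping genes in the table, including ACTB and GAPDH, 0 were listed at 0 in any library. These are other genes, so their values cannot show whether the estimate of this locus failed.

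ENSSSCG00000034388 was at 4.66 FPKM in Control-1 and 3.50 FPKM in Control-2. Levels at 20 Gy were 0.0495, 0.175 and 0.00849 FPKM, at 30 Gy at 0.115, 0.0983 and 0.0826 FPKM, and at 40 Gy at 0.296, 0 and 0.0104 FPKM in 40Gy-1, 40Gy-2 and 40Gy-3. All irradiated values were low, and the highest of them, in 40Gy-1, was still 11.8 times lower than the lower control. The means left at 20, 30 and 40 Gy were 1.90%, 2.32% and 2.50% of the control mean. Across the whole table, 5 genes had at least 3 FPKM in both controls and under 1 FPKM in every irradiated library, these 2 loci, the sulfotransferase SULT1B1 and 2 others without a symbol. The opposite pattern, under 1 FPKM in both controls and at least 3 FPKM in every irradiated library, was shown by 3 genes. These thresholds were chosen after the values had been seen.

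ACKR2 (ENSSSCG00000031154, Sscrofa11.1 chromosome 13, 26291583 to 26329506) was at 13.6 FPKM in Control-1 and 11.5 FPKM in Control-2. After 20 Gy it was at 0.415, 1.01 and 0.41 FPKM, at 30 Gy at 0.824, 0.794 and 0.264 FPKM, and at 40 Gy at 0.889, 1.02 and 0.667 FPKM. It was under 1 FPKM in 7 of 9 irradiated libraries, and 20Gy-2 and 40Gy-2 lay just above. The mean fell from 12.5 ± 1.49 FPKM (SD, n = 2) to 0.612 ± 0.345, 0.537 ± 0.385 and 0.859 ± 0.178 FPKM at 20, 30 and 40 Gy, which leaves 4.88%, 4.28% and 6.85%. In control liver the receptor ranked above 66.3% to 68.9% of the genes tested, and in irradiated liver above 1.3% to 12.2%. In bulk tissue, fewer cells of a type and less RNA per cell cannot be told apart. Of the lymphatic endothelial markers, 4 of 5 (FLT4, CCL21, LYVE1 and RELN) were in the table, none at 0. Their summed level was 40.6 to 41.7 FPKM in control and 25 to 43.8 FPKM in irradiated liver, ranges that overlap. The sums of 6 general endothelial markers did not overlap, at 282 to 347 FPKM in control and 118 to 231 FPKM in irradiated liver, mainly through CLEC4G of sinusoidal endothelium (206 and 263 against 20.5 to 164 FPKM), and 0 of these 6 passed the test. Of the genes listed as lymphatic markers 1, LYVE1, was lower in irradiated liver with an adjusted p under 0.05 (13.4 and 15 FPKM in control, 4.96 to 10.3 FPKM in irradiated liver, adjusted p = 0.0316). It missed the threshold without any 1 of 40Gy-2 (0.0516), 30Gy-2 (0.0564), 30Gy-1 (0.0541), 20Gy-3 (0.0556), 20Gy-1 (0.0629), Control-2 (0.174) and Control-1 (0.241). Bulk values do not say whether LYVE1 came from lymphatic or sinusoidal endothelium. The part of either in the level of ACKR2 was not tested.

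PMM1 (ENSSSCG00000000061, chromosome 5, 6964999 to 6975904) was at 60.1 FPKM in Control-1 and 162 FPKM in Control-2. At 20 Gy it was at 4.05, 6.23 and 4.17 FPKM, at 30 Gy at 5.90, 5.87 and 4.07 FPKM, and at 40 Gy at 12.9, 6.68 and 8.33 FPKM. The controls differed from each other by a factor of 2.70, and the lower control was still 4.64 times the highest irradiated library. The means left at 20, 30 and 40 Gy were 4.33%, 4.48% and 8.39% of the control mean of 111 ± 72.2 FPKM. The log2 difference from control, -3.82, ranked 8 from the lowest among the 11644 genes tested. It was -4.52 without Control-1 and -3.11 without Control-2.

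MPST (ENSSSCG00000038190, chromosome 5, 10739179 to 10749826) was at 39.8 FPKM in Control-1 and 92.3 FPKM in Control-2. After 20 Gy it was at 2.74, 4.67 and 3.51 FPKM, at 30 Gy at 4.81, 4.31 and 3.15 FPKM, and at 40 Gy at 4.26, 12.8 and 12.5 FPKM. Like PMM1, MPST was higher in Control-2 than in Control-1. At 40 Gy the libraries split, with 40Gy-1 among the low-dose values and 40Gy-2 and 40Gy-3 well above them, whereas for PMM1 40Gy-1 was the highest irradiated library. The means left were 5.51%, 5.83% and 14.9% of the control mean of 66.1 ± 37.2 FPKM. The log2 difference from control was -3.33, and -3.93 and -2.74 without Control-1 and Control-2.

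CDPF1 (ENSSSCG00000000005, chromosome 5, 3287043 to 3295842) was at 114 FPKM in Control-1 and 127 FPKM in Control-2. Levels at 20 Gy were 25.7, 31.0 and 30.8 FPKM, at 30 Gy at 37.9, 37.4 and 29.5 FPKM, and at 40 Gy at 32.5, 26.0 and 28.5 FPKM. The 9 irradiated values lay close together, and the dose groups overlapped. The means left were 24.1%, 27.8% and 24.0% of the control mean of 121 ± 9.26 FPKM. CDPF1 stayed an abundant transcript, above 81.0% to 86.4% of the genes tested in the irradiated libraries.

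PCYOX1 (ENSSSCG00000029790, chromosome 3, 72207406 to 72223605) was at 126 FPKM in Control-1 and 106 FPKM in Control-2. At 20 Gy it was at 15.5, 13.1 and 17.2 FPKM, at 30 Gy at 15, 16.4 and 18.8 FPKM, and at 40 Gy at 70.3, 51.4 and 48.0 FPKM. The low-dose libraries were all far below either control, and the 40 Gy libraries lay between them and control without overlap. The means left were 13.1%, 14.8% and 48.6% of the control mean of 116 ± 14.1 FPKM.

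HCFC1R1 (ENSSSCG00000027252, chromosome 3, 39164375 to 39166051) was at 13.7 FPKM in Control-1 and 16.8 FPKM in Control-2. Levels at 20 Gy were 10.7, 10.7 and 9.55 FPKM, at 30 Gy at 10.5, 9.60 and 11.07 FPKM, and at 40 Gy at 3.63, 2.85 and 4.35 FPKM. The low-dose libraries were only slightly under control, the lower control being 1.24 times the highest of them. The means left were 67.7%, 69.2% and 23.6% of the control mean of 15.3 ± 2.19 FPKM.

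TM4SF5 (ENSSSCG00000031112, chromosome 12, 52110732 to 52117921) was at 31.2 FPKM in Control-1 and 29.7 FPKM in Control-2. After 20 Gy it was at 22.2, 16.2 and 18.1 FPKM, at 30 Gy at 17.2, 16.0 and 21.7 FPKM, and at 40 Gy at 5.83, 4.04 and 3.16 FPKM. All low-dose libraries lay between control and 40 Gy, as for HCFC1R1, without overlap. The means left were 61.8%, 62.9% and 14.3% of the control mean of 30.5 ± 1.11 FPKM. For HCFC1R1 and TM4SF5 the name "low at every dose" thus holds by the order of the libraries, with log2 differences from control of -0.52 and -0.68 at 20 Gy, -0.51 and -0.72 at 30 Gy and -1.83 and -2.59 at 40 Gy.

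**Figure D2:**
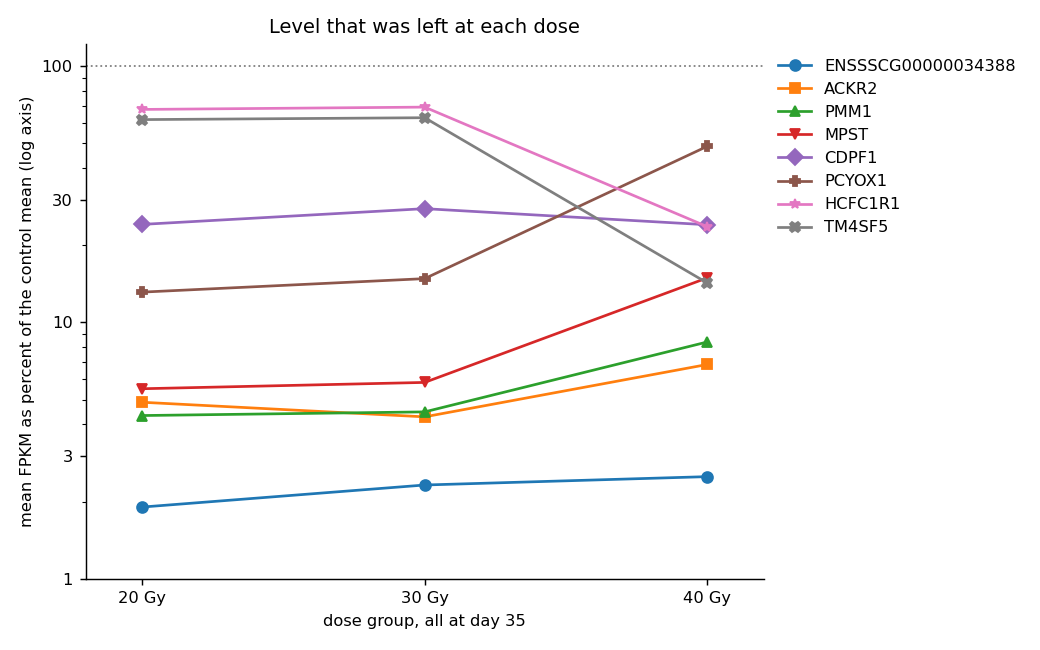
The mean FPKM of 8 genes at each dose (horizontal axis) is given as a percentage of the control mean (vertical axis, logarithmic), with 1 line per gene and a dotted line at the control mean. ENSSSCG00000032047 is left out because it was listed at 0 at every dose. PCYOX1 goes from 13.1% at 20 Gy to 48.6% at 40 Gy, while TM4SF5 goes from 61.8% to 14.3%.

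The difference between doses was not part of how the genes were picked; the controls enter it only through the pooled spread. Between 40 Gy and the mean of 20 and 30 Gy, 3 of the 9 genes changed, in both directions: PCYOX1 was higher at 40 Gy, and HCFC1R1 and TM4SF5 were lower. Of all 11644 genes tested, 21.5% passed this test, and 4 of the 9 genes had groups that did not overlap, against 23.8% of all genes, so neither count is read as particular to the 9. PCYOX1 was higher by 1.75 on the log2(FPKM + 1) scale (SE 0.168, adjusted p = 2.03e-04), with its 3 libraries at 40 Gy above all 6 at the lower doses. TM4SF5 fell by 1.89 (SE 0.183, adjusted p = 2.08e-04) and HCFC1R1 fell by 1.31 (SE 0.141, adjusted p = 3.96e-04), each with all 3 libraries at 40 Gy below all 6 others. These 3 calls held under the 20 alternatives run, with adjusted p of 9.72e-05 to 0.0193 for PCYOX1, 4.12e-05 to 0.0216 for TM4SF5 and 2.70e-04 to 0.0303 for HCFC1R1.

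MPST and PMM1 were higher at 40 Gy on average without passing the test. The difference was 1.05 for MPST (SE 0.35, adjusted p = 0.0565) and 0.74 for PMM1 (SE 0.306, adjusted p = 0.106), and the libraries overlapped for MPST but not for PMM1. Without 40Gy-1, the library in which MPST stood at 4.26 FPKM, the adjusted p of MPST was 0.00348. Without Control-1 and without Control-2 it was 0.0463 and 0.0462, and that of PMM1 was 0.0461 and 0.0457. With the replicate number as a block MPST had an adjusted p of 0.0317. Over all alternatives the adjusted p ran from 0.00348 to 0.305 for MPST and from 0.0457 to 0.426 for PMM1.

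CDPF1 and ACKR2 did not pass either. CDPF1 differed by -0.13 (SE 0.15, adjusted p = 0.554) and ACKR2 by 0.21 (SE 0.176, adjusted p = 0.401). No dose comparison is given for ENSSSCG00000034388 and ENSSSCG00000032047, which were at or near 0 in every irradiated library. Between 30 and 20 Gy the log2 differences of the 7 other genes ran from -0.04 to 0.25, and 0 of them passed the limma test (0 also at an unadjusted p under 0.05). Over all genes 0 of 11644 passed it (0% of the genes tested), with 280 at an unadjusted p under 0.05, in a contrast whose groups hold the near-identical cross-dose pair.

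**Figure D3:**
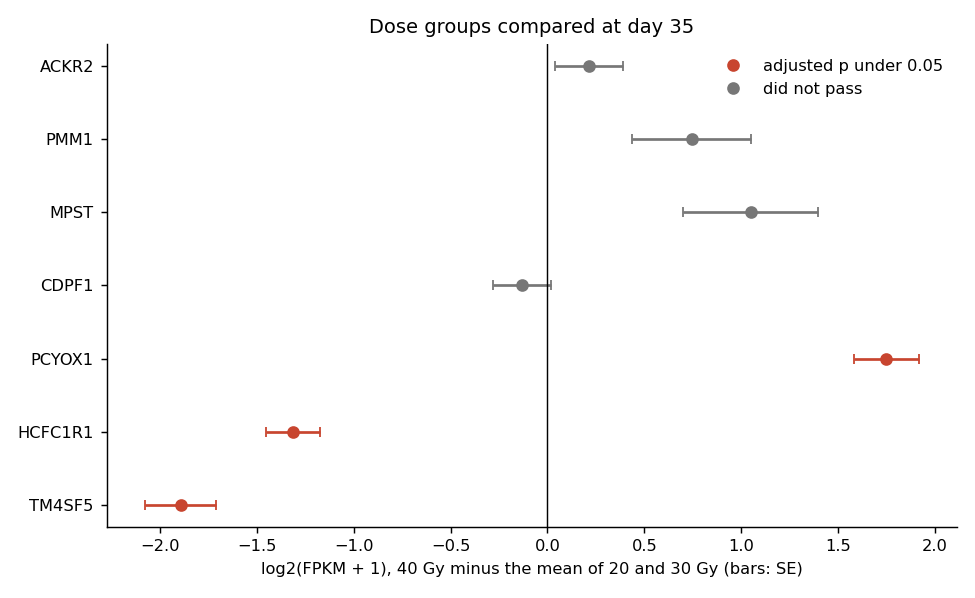
The difference in log2(FPKM + 1) between 40 Gy and the mean of 20 and 30 Gy (horizontal axis) is given for the 7 genes with a symbol as estimated by limma, with SE as bars. Points in red had an adjusted p under 0.05: PCYOX1 at 1.75, HCFC1R1 at -1.31 and TM4SF5 at -1.89.

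Among the 6 libraries at 20 and 30 Gy, 5 of the 8 genes with values above 0 there (PMM1, MPST, ACKR2, CDPF1 and ENSSSCG00000034388) were highest in 20Gy-2, 30Gy-1 and 30Gy-2, the libraries that CYP2E1 and CD163 also set apart. For TM4SF5 these libraries were the lowest, at 16.0 to 17.2 FPKM against 18.1 to 22.2 FPKM in the others. Since 4 of the 6 form near-identical pairs, these orders rest on fewer than 6 independent profiles. ENSSSCG00000034388 was near 0 in all 6, with 0.0983 FPKM in 30Gy-2 and 0.0826 FPKM in 30Gy-3. The same split was seen over 4806 genes, where the log2 ratio of 20Gy-1 had an SD of 0.31 with 20Gy-3 and 0.55 with 20Gy-2. The share of all genes with this order was not counted, so the 5 are not read as particular to the members.

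Of the 7 genes with a position, 3 lie on chromosome 5 (PMM1, CDPF1 and MPST), 2 on chromosome 3 and 1 each on chromosomes 12 and 13. Chromosome 5 holds 507 of 9444 tested genes with a position, or 5.37%. Of those 507 genes 22 were lower in irradiated than in control liver (4.34%, against 2.63% of all genes with a position). The 22 include members, which were chosen by this same contrast, so nothing is read from this share. The members on chromosome 5 lie megabases apart and are not neighbours.

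MPST overlaps TST over 563 bases at its higher-coordinate end, and reads from that stretch could be counted for either gene, since no source used here says whether strand was kept. TST, the mitochondrial thiosulfate sulfurtransferase, was at 676 and 698 FPKM in control, with a lowest, median and highest level of 223, 332 and 551 FPKM over the irradiated libraries. It stood far above MPST in every library, and all its irradiated values were below both controls, with a log2 difference of -0.96 that did not pass (SE 0.257, adjusted p = 0.0641, 0.028 to 0.315 over alternatives). ACKR2 overlaps ZNF662, a zinc finger gene, over 19524 bases, and reads from that stretch could likewise be counted for either gene. ZNF662 was at 2.08 and 1.10 FPKM in control and 0.489 to 1.74 FPKM in irradiated liver, overlapping ranges, with a difference of -0.34 (SE 0.234, adjusted p = 0.464). The levels of ACKR2 in control were thus well above those of the gene it overlaps, and in 6 of 9 irradiated libraries they were below them.

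HIGD1A, a mitochondrial inner membrane protein induced by hypoxia, is the nearest gene before ACKR2, 5248 bases away. It fell from 65.8 and 96.3 FPKM in control to a lowest, median and highest level of 15.8, 29.7 and 47.6 FPKM (log2 change -1.46, SE 0.282, adjusted p = 0.0191). The adjusted p was 0.0701 without Control-1 and 0.223 without Control-2, and 0.114 in the reduced set. VMO1, which starts before TM4SF5 at a gap of 744 bases, fell from 10.9 and 10.4 FPKM to 2.06, 3.26 and 6.30 FPKM (-1.30, SE 0.259, adjusted p = 0.0212). Its adjusted p was 0.169 without Control-1, 0.166 without Control-2 and 0.106 in the reduced set. Among all genes tested, 2.84% were lower and 1.86% higher with an adjusted p under 0.05 in this comparison, 4.71% in all.

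The other neighbours did not pass against control. PPARA, the nuclear receptor that drives fatty acid oxidation in liver and the next gene after CDPF1, was at 9.0 and 6.13 FPKM in control and 2.30 to 6.34 FPKM in irradiated liver (-0.86, SE 0.272, adjusted p = 0.108). HCFC1R1 overlaps THOC6, of the mRNA export complex, over 257 bases. THOC6 was at 10.9 and 13.1 FPKM in control and 7.41 to 13.5 FPKM in irradiated liver (-0.14, SE 0.172, adjusted p = 0.696). On the other side of HCFC1R1 lies TNFRSF12A, the receptor of the cytokine TWEAK, 236 bases away. TNFRSF12A differed from control by 2.04 (SE 0.61, adjusted p = 0.0936). It was at 23.2 to 56.7 FPKM at 40 Gy and 0.365 to 6.15 FPKM at 20 and 30 Gy, higher by 3.15 at 40 Gy (SE 0.552, adjusted p = 0.00451, 0.073 in the reduced set), where HCFC1R1 was lower. CSDC2, beside PMM1, was under 1 FPKM in every library and was not tested, and the remaining neighbours (among them SNRPG, which overlaps PCYOX1 over 648 bases) are not analysed here.

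**Figure D4:**
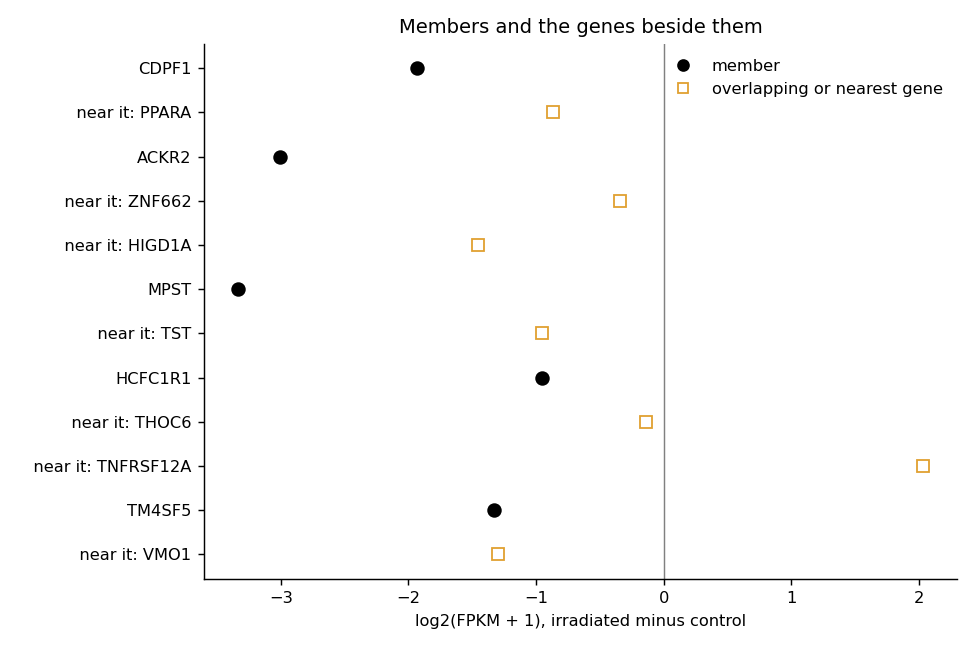
Members (filled circles) and the overlapping or nearest tested genes (open squares) are placed by the log2(FPKM + 1) difference between irradiated and control liver (horizontal axis). MPST at -3.33 and ACKR2 at -3.01 lie further from 0 than the genes beside them, while TM4SF5 at -1.33 and VMO1 at -1.30 lie together. Members were chosen by this contrast, so nothing is read from their distance to the other genes.

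The other genes of each member's pathway were taken from 7 lists. Members were chosen for being below control, so nothing is read from list medians that are milder than the member beside them. In irradiated against control liver 3 of the 66 genes tested fell and 0 rose (background 2.84% lower and 1.86% higher): TXN2, CCL16 and CREB3. In the reduced set 0 of them passed. Between 40 Gy and the lower doses 11 were lower and 8 higher, against 9.71% and 11.8% of all genes. Other than those of CCL11 and CCL16, these calls at 40 Gy were lost in the reduced set.

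Around PMM1, 11 genes of mannose activation and dolichol-linked mannose transfer were tested. Against control 0 of the 11 passed in either direction, with a median log2 difference of -0.29, which stands beside -3.82 for PMM1. MPI, which makes mannose 6-phosphate from fructose 6-phosphate, differed by -0.37 (SE 0.236, adjusted p = 0.43), and GMPPA, a regulator of GDP-mannose synthesis, by -0.30 (SE 0.199, adjusted p = 0.436). At 40 Gy 3 of 11 were higher than at the lower doses and 0 lower. DPM1, of the enzyme that makes dolichol-phosphate mannose, was higher by 0.75 (SE 0.142, adjusted p = 0.00633) and GMDS, which turns GDP-mannose toward GDP-fucose, by 0.81 (SE 0.14, adjusted p = 0.00431). ALG3, a mannosyltransferase, was higher by 0.93 (SE 0.254, adjusted p = 0.0287), a call lost without 40Gy-3 (0.0552), 40Gy-2 (0.142), 20Gy-3 (0.0565) and 20Gy-1 (0.0616).

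Around MPST, 14 genes of cysteine breakdown and hydrogen sulfide were tested, with a median log2 difference of -0.60 against control. TXN2, the mitochondrial thioredoxin, which can take up the sulfur bound by MPST, fell by 0.82 (SE 0.162, adjusted p = 0.0202), from 198 and 202 FPKM to 80.7 to 147 FPKM. Its adjusted p was 0.134, 0.162 and 0.0504 without Control-1, Control-2 and 30Gy-2. CBS and CTH, the other hydrogen sulfide enzymes, differed by -0.76 (SE 0.534, adjusted p = 0.471) and -0.88 (SE 0.812, adjusted p = 0.59). At 40 Gy 3 of the 14 were lower than at the lower doses and 2 higher. GOT2, which makes 3-mercaptopyruvate from cysteine, fell by 1.11 (SE 0.186, adjusted p = 0.00354), and KYAT3, a transaminase, fell by 0.75 (SE 0.132, adjusted p = 0.00454). SQOR, which oxidizes sulfide in mitochondria, was lower by a log2 difference of -1.23 (SE 0.351, adjusted p = 0.0333), a call lost without 40Gy-3 (0.134), 40Gy-2 (0.163), 30Gy-3 (0.055), 30Gy-2 (0.0634), 30Gy-1 (0.057), 20Gy-3 (0.065) and 20Gy-1 (0.0607). TXNRD1, a thioredoxin reductase, was higher by 1.32 (SE 0.294, adjusted p = 0.0125; 0.0739 and 0.0615 without 40Gy-2 and 40Gy-3). KYAT1, another transaminase, was higher by 1.27 (SE 0.384, adjusted p = 0.0412), a call lost under 15 of the 20 alternatives, among them every omission of 1 library (adjusted p of 0.053 to 0.196) other than 40Gy-1, without which the difference was 1.92.

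The other 5 atypical chemokine receptors and relatives (ACKR1, ACKR3, ACKR4, CCRL2 and PITPNM3) stood at 5.61 FPKM or less in every library, 0 of 5 passed in either comparison, and their median difference from control was 0.27 beside -3.01 for ACKR2. Of 10 CC chemokines tested, 1 fell against control. This was CCL16, a liver chemokine, at 1023 and 894 FPKM in control, 645 to 1193 FPKM at 20 and 30 Gy and 57.7 to 110 FPKM at 40 Gy. It differed from control by -1.30 (SE 0.262, adjusted p = 0.0224; 0.182 without Control-1 and 0.143 without Control-2) and fell by 3.62 between the lower doses and 40 Gy (SE 0.237, adjusted p = 4.41e-05). CCL2, a ligand of ACKR2, was at 1.42 and 2.69 FPKM in control, at 63.2 to 84.4 FPKM in 20Gy-1, 20Gy-3 and 30Gy-3, at 6.27 to 7.10 FPKM in the other low-dose libraries and at 32.9, 1.27 and 2.30 FPKM at 40 Gy, a difference of 2.37 that did not pass (SE 1.22, adjusted p = 0.311). CCL3L1 and CCL8, which did not pass either, were likewise highest in 20Gy-1, 20Gy-3 and 30Gy-3.

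At 40 Gy 5 CC chemokines were lower than at the lower doses and 1 was higher. The higher one was CCL11, eotaxin, a chemokine that ACKR2 takes up, at 3.46, 7.02 and 10.1 FPKM at 40 Gy and at most 0.0663 FPKM at the lower doses (2.82, SE 0.235, adjusted p = 1.18e-04). CCL21, a lymphatic chemokine, fell by 0.95 (SE 0.202, adjusted p = 0.0102). CCL19 fell by 1.54 (SE 0.38, adjusted p = 0.019; 0.102 and 0.057 without 40Gy-2 and 40Gy-3). CCL4 fell by 1.11 (SE 0.295, adjusted p = 0.0254), a call lost without 40Gy-3 (0.0944), 40Gy-2 (0.128), 30Gy-2 (0.0529), 30Gy-1 (0.0542) and 20Gy-1 (0.0516). CCL5 was lower by a log2 difference of -0.80 (SE 0.235, adjusted p = 0.0373), a call lost without any 1 library other than 20Gy-2 and 40Gy-1, with an adjusted p of 0.0509 to 0.18. Markers of macrophages, neutrophils and T and NK cells, which make or answer to such chemokines, were measured beside them. Of these lists 6 of 7, 3 of 5 and 4 of 6 markers were in the table, none at 0 throughout. Summed levels were 317 to 387, 1.53 to 4.6 and 9.69 to 9.75 FPKM in control, 261 to 466, 0.341 to 1.01 and 12.2 to 18.5 FPKM at 20 and 30 Gy, and 583 to 725, 7.71 to 17.9 and 7.10 to 30.5 FPKM at 40 Gy. At 40 Gy 3 macrophage markers (CD68, CD163 and CD14) and 3 neutrophil markers were higher than at the lower doses, and 2 T cell markers (CD3E and CD8A) were lower. Without 40Gy-2 the adjusted p of CD68, CD163, CD14, CD3E and CD8A was 0.0765, 0.109, 0.0739, 0.0572 and 0.172. CD68 also missed the threshold without 20Gy-1 (0.0505), CD163 without 40Gy-3 (0.0917), 20Gy-3 (0.0659) and 20Gy-1 (0.068), and CD8A without any 1 irradiated library other than 40Gy-1 and 20Gy-2 (0.0543 to 0.172). In the reduced set CD68, CD163, CD14, S100A8, CD3E and CD8A did not pass. Against control 1 macrophage marker passed, MARCO, at 11.7 and 0.77 FPKM in control and 18.0 to 79.2 FPKM in irradiated liver. It was higher by 2.70 (SE 0.649, adjusted p = 0.0438), a call that not every alternative kept. The macrophage sum was mostly CD14, at 256 and 227 FPKM in control, 198 to 319 FPKM at 20 and 30 Gy and 354 to 548 FPKM at 40 Gy. The highest T and NK sum was mostly NKG7 in 40Gy-1, at 23.3 FPKM. The part of these cells in the chemokine values was not tested.

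Around PCYOX1, 10 genes of protein prenylation were tested and 0 passed against control, with a median difference of 0.18 beside -2.21 for PCYOX1. The relative PCYOX1L was at 1.51 and 5.79 FPKM in control and 3.29 to 9.88 FPKM in irradiated liver (0.70, SE 0.356, adjusted p = 0.307). At 40 Gy, where PCYOX1 was higher, 2 of the 10 were higher and 2 lower. FDPS, which makes the farnesyl donor, fell by 2.94 (SE 0.472, adjusted p = 0.00305), and GGPS1, which makes the geranylgeranyl donor, by 0.92 (SE 0.253, adjusted p = 0.0288). ZMPSTE24 and RCE1, proteases that trim prenylated proteins, were higher by 0.68 (SE 0.152, adjusted p = 0.0132) and 0.64 (SE 0.17, adjusted p = 0.026). The call of GGPS1 was lost without 40Gy-3 (0.0743), 40Gy-2 (0.0774), 40Gy-1 (0.0537), 30Gy-3 (0.0528), 20Gy-3 (0.0592) and 20Gy-1 (0.0633). That of RCE1 was lost without 40Gy-3 (0.0917), 40Gy-2 (0.129), 30Gy-3 (0.0503), 20Gy-3 (0.0542) and 20Gy-1 (0.0601), and that of ZMPSTE24 without 40Gy-3 (0.0599) and 40Gy-2 (0.0732).

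Around HCFC1R1, 12 genes of HCF-1 and its partners were tested, with a median difference of -0.13 beside -0.95 for HCFC1R1. HCFC1 itself, the gene of HCF-1, was at 3.95 and 4.78 FPKM in control and 4.35 to 10.1 FPKM in irradiated liver (0.39, SE 0.202, adjusted p = 0.313). CREB3, a membrane-bound transcription factor that binds HCF-1, was lower than in control by a log2 difference of -0.65 (SE 0.16, adjusted p = 0.0477). It missed the threshold without any 1 library other than 40Gy-1 and 40Gy-3, with an adjusted p of 0.0556 to 0.255, and was 0.0889 with the replicate block. OGT, the enzyme that adds O-GlcNAc to HCF-1 and cleaves it, was the 1 gene of the 12 that passed at 40 Gy (-0.57, SE 0.152, adjusted p = 0.0263), a call lost without 40Gy-3 (0.0753), 40Gy-2 (0.115), 20Gy-3 (0.0563) and 20Gy-1 (0.0599). In the L6 family of TM4SF5, 0 of the 4 others tested passed in either comparison. TM4SF4 was at 106 and 43.5 FPKM in control, 69.1 to 210 FPKM at 20 and 30 Gy and 248 to 403 FPKM at 40 Gy (1.27 between 40 Gy and the lower doses, SE 0.416, adjusted p = 0.0528), and TM4SF1 was at 12.6 and 18.6, 14.5 to 48.5 and 43.3 to 92.3 FPKM (1.06, SE 0.378, adjusted p = 0.07). TM4SF18 and TM4SF20 differed by 0.52 (SE 0.233, adjusted p = 0.131) and 0.22 (SE 0.316, adjusted p = 0.633).

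The genes whose profile over the 11 libraries lay nearest to the median profile of the 9, by the root mean square difference of log2(FPKM + 1) centred on control, were SULT1B1 (0.40), RGS16 (0.45), PGC (0.53), CLEC4F (0.54) and ACADVL (0.54), where the median over all genes with a symbol was 2.38. SULT1B1, a sulfotransferase, was at 5.20 and 10.3 FPKM in control and 0 to 0.601 FPKM in irradiated liver. RGS16, a regulator of G protein signalling, was at 25.8 and 17.0 FPKM in control and 2.37 to 4.76 FPKM in irradiated liver. ACADVL, of fatty acid oxidation, was at 146 and 209 FPKM in control and 30.5 to 48.9 FPKM in irradiated liver. PGC, a pepsinogen, and CLEC4F, a lectin known from mouse Kupffer cells, were highest among the irradiated libraries in 40Gy-1, at 2.74 and 8.73 FPKM. These genes were ranked by the same contrast that chose the 9, so their levels against control are a description.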

How the data were processed

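The authors deposited 1 table of FPKM with 12505 genes and 11 columns, each named for 1 library, and no column was left unmapped. HISAT2, Cufflinks and HTSeq, and the builds Sscrofa11.1 and mm10, appear, without roles, among the submitters' processing notes. No source used here gives the annotation, strand or gene filters. FPKM depends on library composition, and without counts no depth, interval or detection limit can be given. IDs were paired with symbols through a gene name table (10561 of 12505), and positions come from the Sscrofa11.1 RefSeq gene table by symbol.

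Genes with at least 1 FPKM in 2 libraries (11644) were fitted as log2(FPKM + 1) with 4 group means in limma 3.58.1 (R 4.3.3), eBayes with trend, 7 residual degrees of freedom, two-sided, with Benjamini-Hochberg adjustment over all genes tested and a threshold of 0.05. On this scale changes of low genes are understated. The fit was tested on simulated data. The near-identical 30 Gy libraries enter the fit separately. The members and lists were chosen with earlier results of these data known. Named genes are the members, list genes that passed, adjoining genes, the 5 nearest profiles and cell type markers. Some list genes that did not pass, such as CCL2 and MPI, are named as well, outside that rule.

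Alternatives were another pseudocount, other filters, other scalings, a replicate block, averaging or omitting near-identical libraries, and omitting each library.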

Additional observations from a re-analysis of the deposited data

How the results depend on the processing

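Directions of the followed values did not reverse in any of the 20 alternatives. The median log2 difference of the 9 genes from control, -2.21, was -3.57 with log2(FPKM + 0.1) and -2.61 with at least 5 FPKM in 2 libraries (over 8 genes, since ENSSSCG00000034388 falls under that filter), and ran from -2.33 to -2.08 with single libraries left out. Without a control library ENSSSCG00000032047 and ENSSSCG00000034388 fall under the filter. The count of the 9 genes passing at 40 Gy, 3, ran from 3 to 5 with single libraries left out, with 5 without Control-1 or Control-2, and was 0 throughout at 30 against 20 Gy. Counts over all genes moved more, and the cause was not tested. Against control, 548 genes became 337 with the 30 Gy pair averaged, 290 without the cross-dose pair and 42 in the reduced set. Leaving out single libraries gave 80 to 1416 (160 without Control-1, 80 without Control-2, 320 without 20Gy-1, 321 without 30Gy-1, 327 without 30Gy-2, 1416 without 40Gy-1). At 40 Gy, 2508 became 1177 without the cross-dose pair and 201 in the reduced set, and 846 to 4611 with single libraries left out (1625 without 20Gy-1, 4611 without 40Gy-1, 846 without 40Gy-2, 1187 without 40Gy-3). At 30 against 20 Gy, 0 became 2 and 1 in the same settings (0 to 3 with single libraries left out). The list genes passing against control, 3, became 1 with quantile normalization, 1 without the cross-dose pair and 0 in the reduced set (0 to 11, the highest without 40Gy-1), and the 19 at 40 Gy became 9 and 2 (8 to 31, the lowest without 40Gy-2 or 40Gy-3 and the highest without 40Gy-1). In the reduced set 30 Gy keeps 1 library, assumed to vary like the other groups, and PCYOX1, HCFC1R1, TM4SF5, CCL11 and CCL16 passed at 40 Gy there. Deviations of same-numbered libraries from their group means correlated between -0.62 and 0.65, with 0.57 for the near-identical 20Gy-3 and 30Gy-3. With 2 or 3 libraries a group and near-identical pairs among them, these values cannot decide whether replicate numbers pair the libraries. With the replicate block 440 genes passed against control, 2554 at 40 Gy and 0 at 30 against 20 Gy, with 4 of the 9 genes at 40 Gy, MPST in addition. The unknown depth limits what can be said of values under 1 FPKM.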
